A study of Mus musculus with 6 samples.

Results

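The 37 genes described here encode enzymes that bring pyruvate into the mitochondrion's oxidative pathway, run the citric acid cycle and refill or drain it, together with the kinases and phosphatases that switch pyruvate oxidation off and on. They were chosen by symbol from a list of 39 genes. The symbols of 37 had a row among the 23185 named genes of the table, whereas Mpc1 and Mpc2, the pyruvate carrier subunits, had none and were not analysed here. Heart samples of FVB mice, an inbred laboratory strain, were hybridised to Affymetrix arrays, 3 from wild type littermates and 3 from irisin knockout animals, with 1 array for each sample. Irisin is a secreted fragment of the Fndc5 protein with hormone-like actions, and the knockout was made by injecting Cas9 messenger RNA with 5 guide RNAs into zygotes. Both groups ate the same chow, with 10% of it fat, for 24 weeks, and the labels name no other treatment for these arrays. The material is called cardiomyocytes in some label fields and myocardium in another. No label says outright that each array is a separate animal, so p-values measure only how these samples scatter, in part perhaps for technical reasons. Nor do the labels name a batch, and a batch matching genotype cannot be told apart.

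Heart muscle draws most of its energy from fatty acids and part of it from pyruvate, made by glycolysis or from lactate. The pyruvate dehydrogenase complex commits pyruvate to acetyl-CoA, the fuel that the citric acid cycle shares with fatty acid oxidation. Kinases of the Pdk family phosphorylate and inactivate the complex, and the phosphatases Pdp1 and Pdp2 reverse this. Carboxylation of pyruvate, malic enzymes and transaminases add carbon to the cycle or take it away, processes known as anaplerosis and cataplerosis.

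Values are log2 units, so a difference of 1 is a 2-fold change, and a gene is said to have risen or fallen where its limma p-value, adjusted over all 23185 genes, was under 0.05. Fndc5, the targeted gene, read 8.42, 8.40 and 7.83 in wild type and 7.68, 5.49 and 5.45 in the knockout in replicates 1, 2 and 3 of each, a difference of -2.01 (adjusted p = 0.0359). Knockout replicate 1 was the least reduced, and the call was lost without any single array other than that one. Markers of several heart cell types gave signals on all arrays. The mean level of the cardiomyocyte markers was 10.75 to 11.20 in wild type and 11.07 to 11.13 in the knockout, and Pln alone of 10 passed, higher by 0.76. By list average, smooth muscle and fibroblast markers were lower in the knockout. Des of the smooth muscle list was higher by 0.38 but did not pass. Dcn and Tcf21 of the fibroblast list differed by -0.01 and 0.10. The smooth muscle list averaged 6.88 to 8.82 in wild type and 5.58 to 6.04 in the knockout, with 4 of 5 lower, and the fibroblast list 6.81 to 7.60 and 6.25 to 6.50, with 3 of 6 lower. The endothelial list averaged 7.82 to 7.90 and 7.45 to 7.69, with Pecam1 lower. Their part in the differences of the pathway genes was not tested, and in such bulk samples fewer cells of a type and less RNA per cell cannot be told apart. Atrial markers varied within both groups, with Myl7 at 10.16, 4.22 and 5.55 in wild type and 5.08, 2.44 and 1.33 in the knockout, highest in replicate 1 of each. Alas2, the only red blood cell gene of 3 listed that was measured, read 7.41 in wild type replicate 2 and 4.41 to 5.14 on the other arrays. Macrophage markers averaged 3.92 to 4.10 and 3.88 to 4.05, with 0 of 4 past the threshold. The skeletal muscle list averaged 1.52 to 1.67 and 1.32 to 1.49, and the adipocyte list 2.23 to 2.65 and 2.21 to 2.43, with 0 of 5 past the threshold in each. Of the adipocyte list, Adipoq stayed at or below 1.65, while Cidea read 4.88, 5.06 and 4.98 in wild type and 5.16, 5.45 and 5.07 in the knockout.

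**Figure D1:**
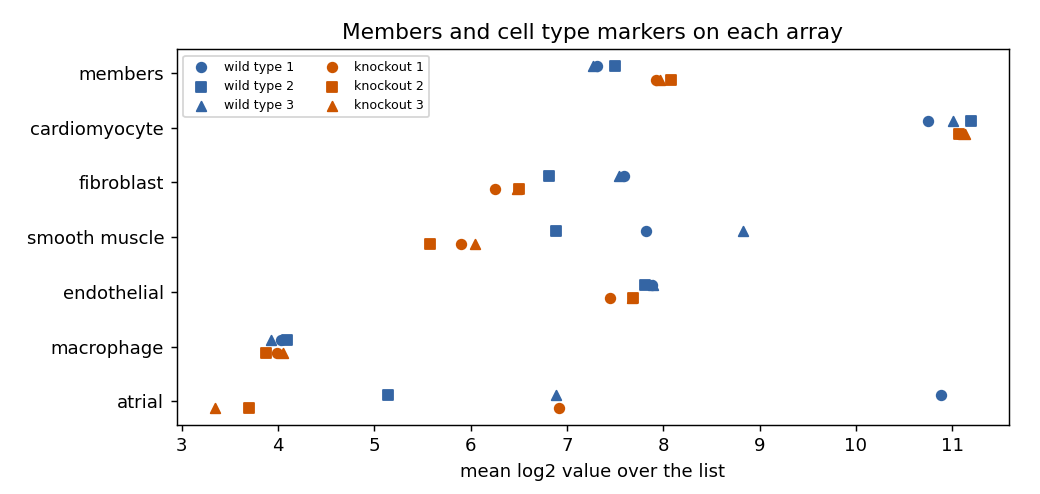
Each point is the mean log2 value of a gene list on 1 array (blue: wild type, orange: knockout, shapes: replicate numbers). The pathway genes lie at 7.27 to 7.50 in wild type and 7.93 to 8.08 in the knockout, cardiomyocyte markers overlap, and fibroblast, smooth muscle and endothelial markers lie lower in the knockout.

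Most of these genes were higher in the knockout. Of the 37 genes, 22 rose, 0 fell and 15 did not pass, against 10.4% of all genes tested that rose and 6.18% that fell. At an unadjusted limma p under 0.05, 29 were higher and 0 lower, against 3645 higher and 3147 lower of all 23185 genes. Of the 2319 genes in the brightest decile by mean signal, 1052 were higher and 372 lower. Of the 27 members there, 23 were higher and 0 lower. The median difference of the members was 0.67, against -0.05 for all genes. In 30 of the 37 the 3 knockout values lay above the 3 wild type values, an arrangement seen in 17.2% of all genes, and in Suclg1 they lay below (17% of all genes). In the brightest decile the higher arrangement was seen in 1107 of 2319 genes and in 23 of the 27 members. The lower arrangement was seen in 403 of those 2319 genes. Asking also for a difference of at least 1 log2 unit left 5, Suclg2, Me3, Idh3b, Pdk2 and Me1, against 3.42% of all genes, and a threshold of 0.01 left 16, against 5.42%.

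**Figure D2:**
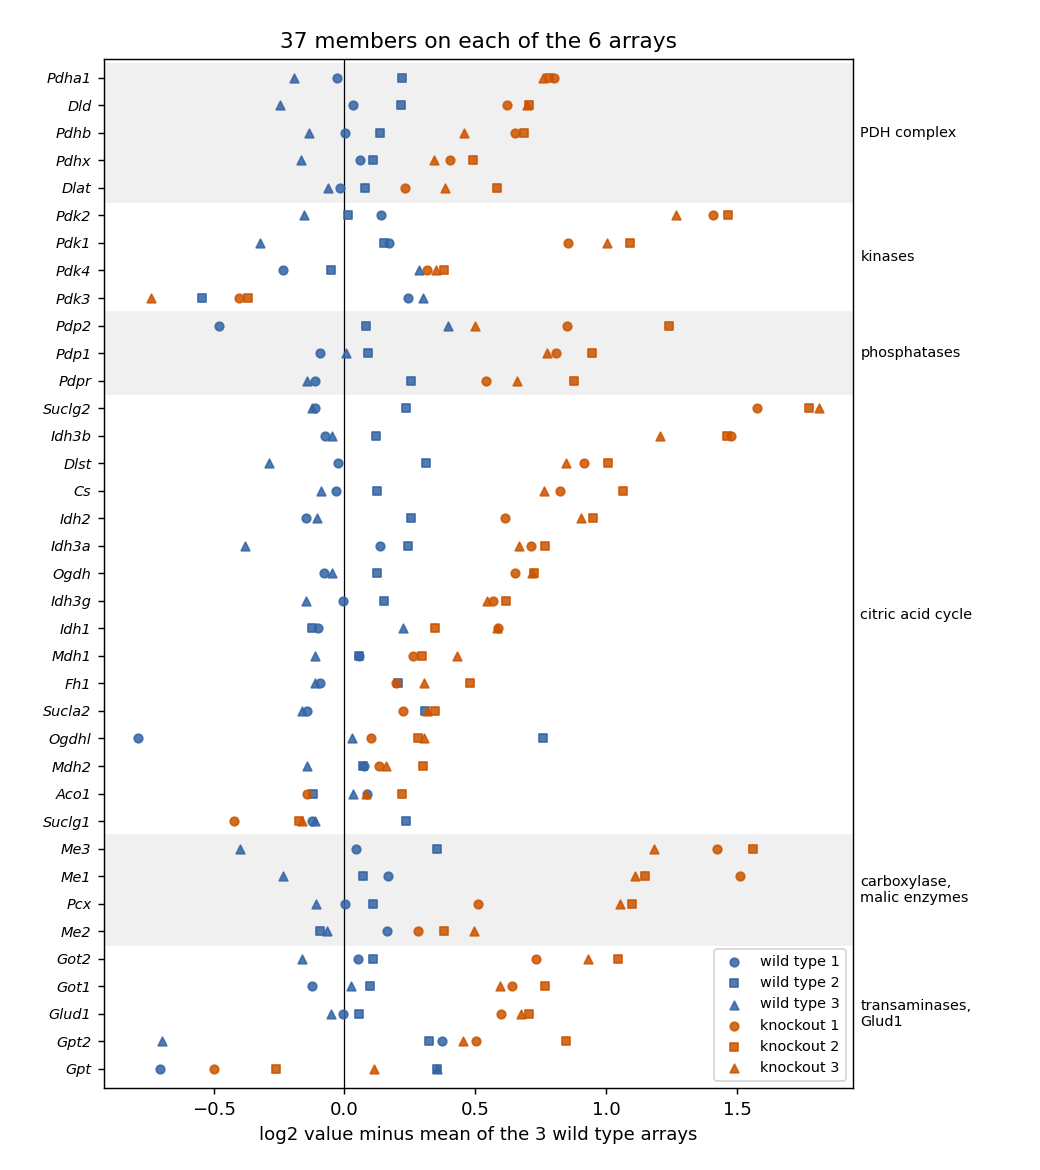
Each row is 1 of the 37 genes and each point 1 array, placed at its log2 value minus the mean of the 3 wild type arrays (blue: wild type, orange: knockout, shapes: replicate numbers). In all 22 genes that rose the orange points lie right of the blue ones, with Suclg2 farthest out, while Ogdhl, Gpt and Pdk3 overlap.

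Most of these genes gave strong signals, and bright genes in general stood higher in the knockout. Of the 37, 27 lay in the brightest decile of all genes by mean signal. In that decile 34.5% of genes rose and 11.1% fell, with a median difference of 0.27, while the 27 members there had 18 that rose and a median of 0.67. The median difference of the deciles ran from -0.12 in the fifth to 0.27 in the brightest. Quantile normalization, which gives every array the same distribution, left 16 members higher, against 8.13% of all genes, and a median of 0.42. Centring each array on its median raised the count to 27, against 13.6%. Cyclic loess, which removes any trend of the difference with level, left 10 higher, against 7.93% of all genes, and a median of 0.34. In the brightest decile it called 7 of the 27 members higher (25.9%), against 19.1% of all genes there. Suclg1, also in that decile, was called lower, against 7.2% of all genes and 20.3% of the decile. Whether the trend with level comes from the samples or from the processing was not tested.

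Of the 22 genes that rose, 10 kept the call in each of the 17 refits that were run. The refits used other scalings, filters, variance models, the replicate number as a block and arrays left out. The share of all genes called higher in every refit was not counted. The 10 were Pdk1, Pdk2, Pdp1, Cs, Idh3b, Dlst, Suclg2, Pcx, Me1 and Me3. The other 12 that rose lost the call in at least 1 refit. These were Pdha1, Pdhb, Dld, Pdpr, Idh1, Idh2, Idh3a, Idh3g, Ogdh, Got1, Got2 and Glud1, and all of them lost it after cyclic loess. Single arrays mattered too, with 16 members higher without knockout replicate 2 (6.05% of all genes) and 23 without wild type replicate 3 (7.96%). Without knockout replicate 1, where Fndc5 was least reduced, 18 rose (6.62%). Without both arrays numbered 1, where the atrial markers were highest, 16 rose (7.63%) with a median of 0.68. Of the 15 that did not pass, 9 were called in at least 1 refit, and the share of all genes was not counted here either.

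**Figure D3:**
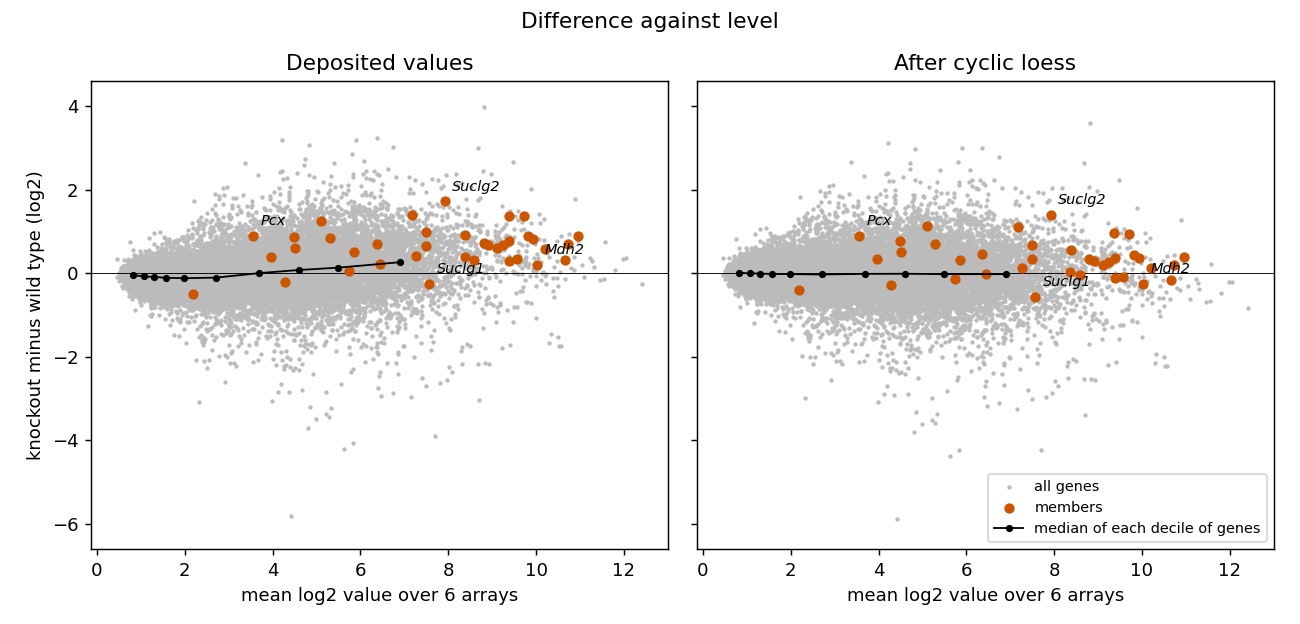
Each point is a gene, at its mean log2 value over 6 arrays and its knockout minus wild type difference in log2 units, as deposited (left) and after cyclic loess (right). Orange points are the 37 members and the black line joins the medians of the deciles of genes, which reach 0.27 on the left and -0.02 on the right for the brightest decile.

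The pyruvate dehydrogenase complex was represented by 5 genes. All 5 had the 3 knockout values above the wild type values, and 3 of the 5 rose. All 5 lay in the brightest decile, where 1107 of 2319 genes had that arrangement and 34.5% rose, against 17.2% and 10.4% of all genes. Pdha1, the alpha subunit of the E1 component that decarboxylates pyruvate and the site of regulatory phosphorylation, stood at 8.96, 9.21 and 8.79 in wild type replicates 1, 2 and 3 and at 9.79, 9.77 and 9.75 in knockout replicates 1, 2 and 3. The knockout arrays were nearly level and the lowest of them lay above the highest wild type array. The difference was 0.78 (SE 0.13, 95% interval 0.48 to 1.09, adjusted p = 0.00591), or 1.72-fold. Pdhb, the beta subunit of E1, read 8.82, 8.96 and 8.69 in wild type and 9.47, 9.51 and 9.28 in the knockout. It rose by 0.60 (SE 0.13, adjusted p = 0.0146). Dld, the E3 flavoprotein that this complex shares with the oxoglutarate and branched-chain ketoacid dehydrogenases, read 8.61, 8.79 and 8.32 in wild type and 9.19, 9.28 and 9.27 in the knockout, with wild type replicate 3 the lowest array. It rose by 0.67 (SE 0.14, adjusted p = 0.0136). Dlat, the acetyltransferase core, read 8.16, 8.25 and 8.11 in wild type and 8.40, 8.75 and 8.56 in the knockout (difference 0.40, adjusted p = 0.0724). Pdhx, which tethers E3 to that core, read 7.12, 7.17 and 6.89 and 7.46, 7.55 and 7.40 (difference 0.41, adjusted p = 0.0554). Neither passed, and after cyclic loess the differences of the 5 subunits shrank to between 0.04 for Dlat and 0.37 for Pdha1 (adjusted p of 0.881 and 0.0765). Pdhb and Dld each also lost the call without 2 of the single arrays.

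On the switch of the complex, 2 of 4 kinases and 2 of 3 phosphatase genes rose, against 10.4% of all genes and 34.5% of the brightest decile. Among the inhibitory kinases Pdk1 and Pdk2 rose, while Pdk3 and Pdk4 did not pass. Pdk2, an isoform found in most tissues, stood at 8.82, 8.70 and 8.53 in wild type and 10.09, 10.15 and 9.95 in the knockout. The gap was wide beside the spread within either group. The difference was 1.38 (SE 0.13, 95% interval 1.09 to 1.67, adjusted p = 0.000546), or 2.60-fold. Pdk1, known as a target of the hypoxia-inducible factors, read 7.18, 7.16 and 6.68 in wild type and 7.86, 8.10 and 8.01 in the knockout, again with wild type replicate 3 lowest. It rose by 0.98 (SE 0.16, adjusted p = 0.00475). Pdk4, the isoform known to rise with fasting and fatty acid supply, read 9.17, 9.35 and 9.69 in wild type and 9.71, 9.78 and 9.75 in the knockout, where wild type replicate 3 nearly reached the knockout arrays. Its difference of 0.35 (95% interval 0.01 to 0.69) had an adjusted p of 0.160 and turned to -0.08 after cyclic loess. Without wild type replicate 3, Pdk4 passed with a difference of 0.49 (adjusted p = 0.0466). Pdk3 gave a weak signal, at 2.68, 1.90 and 2.74 in wild type and 2.04, 2.07 and 1.70 in the knockout. Its groups overlapped through wild type replicate 2, and the difference was -0.50 (adjusted p = 0.187). Without wild type replicate 2 it was -0.78 and passed as lower (adjusted p = 0.0144), as 5.93% of all genes did.

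Of the phosphatase genes, Pdp1 and Pdpr rose. Pdp1, the calcium-stimulated catalytic subunit that is abundant in muscle, read 4.78, 4.97 and 4.88 in wild type and 5.69, 5.82 and 5.65 in the knockout. The spread within each group was small beside the gap, and the rise was 0.84 (SE 0.12, 95% interval 0.58 to 1.11, adjusted p = 0.00251). Pdpr, the regulatory subunit, read 5.91, 6.27 and 5.88 in wild type and 6.56, 6.90 and 6.68 in the knockout and rose by 0.69 (SE 0.15, adjusted p = 0.0164). Its call was lost without any 1 of 3 arrays and after either quantile normalization or cyclic loess. Pdp2, the other catalytic subunit, differed by as much, 0.86 (SE 0.25), but its arrays were scattered, at 3.57, 4.13 and 4.44 in wild type and 4.90, 5.29 and 4.55 in the knockout. The groups did not overlap, yet Pdp2 missed the threshold narrowly (adjusted p = 0.0502) and passed in 7 of the 17 refits.

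Related genes were also compared within each array, where the difference of their values cancels what the array shares. Only its change between groups is read, since the offset itself also depends on the probes. A trend of the change with level does not cancel between genes of unlike level. The log2 value of Pdk4 minus that of Pdk2 was 0.34, 0.65 and 1.16 in wild type and -0.38, -0.36 and -0.20 in the knockout, a change of -1.03 (SE 0.24). For Pdk1 minus Pdk2 the change was -0.40 (SE 0.12). Neither pair overlapped between the groups, and the two-sided exact permutation test gave p = 0.1 for both, the smallest value that 3 arrays against 3 allow (adjusted p = 0.333 over the 10 pairs tested). Pdp2 minus Pdp1 changed by 0.02 with overlapping groups (exact permutation p = 0.9).

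**Figure D4:**
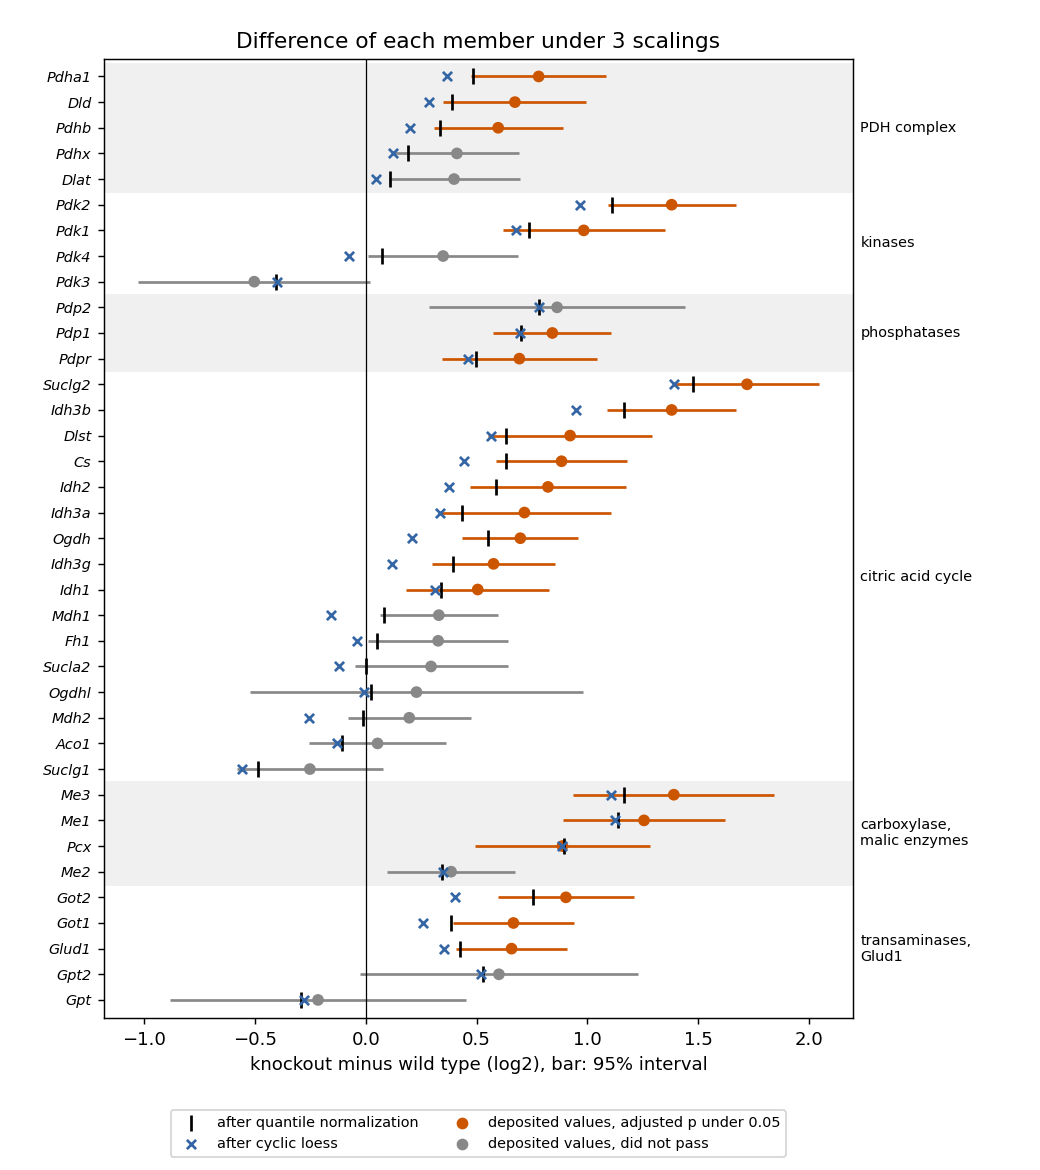
Points give knockout minus wild type in log2 units for the 37 genes, grouped by role, with 95% intervals from the limma fit (orange: passed, grey: did not pass). Black ticks and blue crosses give the difference after quantile normalization and after cyclic loess: Suclg2, Idh3b, Pdk2, Me1 and Me3 stay near or above 1 throughout, and Mdh2 turns negative.

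In the citric acid cycle, counting Aco1 and the cytosolic Idh1 and Mdh1 with it, 9 of 16 genes rose, 7 did not pass, and the median difference was 0.54. Of all genes 10.4% rose, and 34.5% in the brightest decile, where 14 of the 16 lay. At an unadjusted limma p under 0.05, 11 of the 16 were higher, against 3645 of all 23185 genes and 1052 of the 2319 in that decile. Cs, citrate synthase, which joins acetyl-CoA to oxaloacetate at the entry, read 9.35, 9.51 and 9.29 in wild type and 10.21, 10.45 and 10.15 in the knockout. Every knockout array stood clearly above every wild type array, and the rise was 0.88 (SE 0.13, 95% interval 0.59 to 1.18, adjusted p = 0.00315). Aco1, the cytosolic aconitase that doubles as an iron regulatory protein, read 5.80, 5.60 and 5.75 in wild type and 5.57, 5.94 and 5.80 in the knockout and differed by 0.05 (95% interval -0.25 to 0.36).

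The 3 subunits of the NAD-dependent isocitrate dehydrogenase, the calcium-sensitive oxidative step, all rose. Idh3b, a regulatory subunit, stood at 8.95, 9.15 and 8.98 in wild type and 10.50, 10.49 and 10.23 in the knockout, a rise of 1.38 (SE 0.13, 95% interval 1.09 to 1.67, adjusted p = 0.000563), or 2.60-fold. Idh3g, the other regulatory subunit, read 9.91, 10.07 and 9.77 in wild type and 10.48, 10.54 and 10.46 in the knockout and rose by 0.58 (95% interval 0.30 to 0.85, adjusted p = 0.0138). After cyclic loess that difference was 0.12 (adjusted p = 0.575), and the call was also lost without either of 2 single arrays. The intervals of Idh3b and Idh3g do not overlap, though the difference between these 2 subunits was not tested. Idh3a, which carries the catalytic site, read 8.58, 8.69 and 8.06 in wild type, with replicate 3 low, and 9.16, 9.21 and 9.11 in the knockout. It rose by 0.72 (SE 0.17, adjusted p = 0.0229), and lost the call without any 1 of 3 arrays. Idh2, the mitochondrial enzyme that makes NADPH, read 9.38, 9.78 and 9.42 in wild type and 10.14, 10.47 and 10.43 in the knockout and rose by 0.82 (adjusted p = 0.00857). Its cytosolic counterpart Idh1 read 5.51, 5.49 and 5.84 in wild type and 6.20, 5.96 and 6.20 in the knockout, a rise of 0.51 (adjusted p = 0.0427). Leaving out any of 5 single arrays ended that call, with adjusted p-values as high as 0.139. Idh2 minus Idh1 changed by 0.32 (SE 0.27, exact permutation p = 0.3), with overlapping groups, and by 0.06 after cyclic loess.

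Of the oxoglutarate dehydrogenase complex, the E1 and E2 components rose. Ogdh, its E1 component, stood at 10.30, 10.51 and 10.34 in wild type and 11.03, 11.11 and 11.10 in the knockout, a rise of 0.70 (SE 0.11, adjusted p = 0.00492). After cyclic loess the difference was 0.21 (adjusted p = 0.305). Dlst, the E2 succinyltransferase, read 7.91, 8.24 and 7.64 in wild type and 8.85, 8.94 and 8.78 in the knockout and rose by 0.92 (SE 0.16, adjusted p = 0.00659). Ogdhl, an E1-like relative best known from brain, was uneven in wild type at 5.55, 7.10 and 6.37 and level in the knockout at 6.44, 6.62 and 6.65. Wild type replicate 1 was the lowest of all 6 arrays for it and wild type replicate 2 the highest, and the difference was 0.23 (95% interval -0.52 to 0.98). Ogdhl minus Ogdh changed by -0.47 (SE 0.39, exact permutation p = 0.4), and by -0.22 after cyclic loess.

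The largest difference of the list sat in succinyl-CoA ligase, and only 1 of its 3 subunits passed. The enzyme pairs an alpha subunit, Suclg1, with a beta subunit that sets the nucleotide, Suclg2 for GTP or Sucla2 for ATP. It is the step of the cycle that makes a nucleotide triphosphate directly. Suclg2 stood at 6.96, 7.31 and 6.95 in wild type and 8.65, 8.84 and 8.88 in the knockout. All 3 knockout arrays lay more than a unit above every wild type array, and the rise was 1.72, or 3.30-fold (SE 0.14, 95% interval 1.40 to 2.04, adjusted p = 0.000369). Sucla2 read 9.09, 9.54 and 9.07 in wild type and 9.46, 9.58 and 9.55 in the knockout. Wild type replicate 2 overlapped the knockout arrays, and the difference of 0.29 (95% interval -0.05 to 0.64) had an adjusted p of 0.242. Suclg1 read 7.57, 7.93 and 7.58 in wild type and 7.27, 7.52 and 7.53 in the knockout, with a difference of -0.25 (95% interval -0.58 to 0.08, adjusted p = 0.297) that became -0.56 (adjusted p = 0.0294) after cyclic loess. Within each array, Suclg2 minus Sucla2 was -2.13, -2.24 and -2.12 in wild type and -0.81, -0.74 and -0.67 in the knockout. That is a change of 1.43 (SE 0.06) with no overlap, and the exact permutation test gave its smallest value, p = 0.1 (adjusted p = 0.333 over 10 pairs). It lay between 1.39 and 1.51 under quantile normalization, cyclic loess and the array sets left out, 9 settings in all.

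The bases before the start sites of the beta subunits are shown because these partners of the same alpha subunit differed by unequal amounts. Each is the 250 bases upstream of the first start site that has a window in the RefSeq promoter table (GRCm38.p6), with any AGGTCA, the nuclear receptor core site, in capitals when read on either strand. Suclg2 lies on the minus strand, with its upstream bases at chr6:95718847-95719096. Its start site there is 12 bases inside the gene's outermost start, so the stretches are not placed alike. Sucla2 lies on the plus strand, at chr14:73552536-73552785, before its outermost start.
Suclg2: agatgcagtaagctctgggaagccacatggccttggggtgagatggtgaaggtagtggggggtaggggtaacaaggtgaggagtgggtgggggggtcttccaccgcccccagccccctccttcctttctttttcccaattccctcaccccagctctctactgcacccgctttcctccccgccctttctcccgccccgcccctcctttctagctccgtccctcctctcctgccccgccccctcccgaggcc
Sucla2: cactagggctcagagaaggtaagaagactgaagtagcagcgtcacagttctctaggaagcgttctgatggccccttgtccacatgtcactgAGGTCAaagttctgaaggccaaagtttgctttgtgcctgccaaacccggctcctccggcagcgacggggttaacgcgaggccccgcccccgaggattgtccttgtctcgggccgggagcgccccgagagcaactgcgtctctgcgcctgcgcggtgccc
The Suclg2 stretch held 8 CpG dinucleotides at 64.4% GC and no AGGTCA. The Sucla2 stretch held 18 at 61.2% GC and 1 AGGTCA, which begins 159 bases before the start site. Promoters of all genes had a median of 6 CpG and 52.4% GC.

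Fumarase and the malate dehydrogenases did not pass. Fh1, fumarase, read 8.34, 8.63 and 8.31 in wild type and 8.63, 8.91 and 8.73 in the knockout, with wild type replicate 2 just above the lowest knockout array, and differed by 0.33 (adjusted p = 0.158). Mdh2, which regenerates oxaloacetate in the mitochondrion, read 10.01, 10.00 and 9.79 in wild type and 10.06, 10.23 and 10.09 in the knockout. Its difference of 0.20 (95% interval -0.08 to 0.47) turned to -0.01 after quantile normalization and -0.26 after cyclic loess. Mdh1, its cytosolic partner in the malate-aspartate shuttle, read 10.56, 10.57 and 10.40 in wild type and 10.77, 10.81 and 10.94 in the knockout and differed by 0.33 (adjusted p = 0.0961), and it passed in 1 refit, after centring on the array median (adjusted p = 0.0381). Mdh2 minus Mdh1 changed by -0.13 (SE 0.08, exact permutation p = 0.2).

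The upstream bases of Ogdh, which rose, and of Mdh2, which did not pass, are set side by side because both hold TGACGTCA, the full site of the cyclic AMP response factor CREB, shown in capitals. The stretches are at chr11:6291347-6291596 and chr5:135778399-135778648, both on the plus strand of GRCm38.p6, from the same RefSeq table.
Ogdh: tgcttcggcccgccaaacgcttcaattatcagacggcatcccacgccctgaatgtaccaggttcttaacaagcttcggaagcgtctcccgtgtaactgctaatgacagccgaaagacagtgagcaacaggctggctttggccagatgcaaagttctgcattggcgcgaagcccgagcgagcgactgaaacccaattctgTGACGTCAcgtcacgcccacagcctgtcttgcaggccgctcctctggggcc
Mdh2: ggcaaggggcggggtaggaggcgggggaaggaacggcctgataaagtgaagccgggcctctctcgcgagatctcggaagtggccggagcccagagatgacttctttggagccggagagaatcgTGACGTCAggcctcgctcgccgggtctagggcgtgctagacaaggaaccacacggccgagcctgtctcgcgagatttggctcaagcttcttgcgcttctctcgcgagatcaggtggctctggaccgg
The site begins 51 bases before the first Ogdh start site and 127 bases before that of Mdh2. Of the 37 members, 33 had a promoter in the table, with windows from 250 bases before to 50 after each start site, and TGACGTCA read on either strand occurred for 3 of them, the third being Pdpr. That is 9.09% of these members, against 2.03% of all genes with a promoter. The site contains a CpG. The upstream bases had a median of 17 CpG in these members and 6 in all promoters, so the shares are not matched for CpG. AGGTCA was found for 8 of the 33 (24.2%, against 18.1% of all genes). GCGCATGCG, the NRF1 site, was found for Ogdh alone (1.95% of all genes), and CCGGAAGT, the site of ETS factors such as GABPA, for Dlst alone (4.31%). TNAAGGTCA, the oestrogen-related receptor site, which overlaps AGGTCA, was in none of these windows and in 1.43% of all genes, and AGGTCA repeated after 1 base, the PPAR site, was in none and in 0.0481%. The upstream bases of the 33 members had a median of 17 CpG and 61.6% GC, with a median of 18 CpG in the 20 that rose and 16 in the 13 that did not pass. A match describes letters and shows no binding.

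Of the 4 genes of pyruvate carboxylase and the malic enzymes, which feed carbon into the cycle or draw malate out of it, 3 rose and Me2 did not pass, with a median difference of 1.07. Of all genes 10.4% rose, and 34.5% in the brightest decile, where Me3 alone of the 4 lay. Pcx, pyruvate carboxylase, the classical anaplerotic enzyme that makes oxaloacetate, read 3.12, 3.22 and 3.00 in wild type and 3.63, 4.21 and 4.17 in the knockout. Knockout replicate 1 was the lowest of its group but above all wild type arrays, and the rise was 0.89 (SE 0.17, 95% interval 0.49 to 1.28, adjusted p = 0.00973). Its difference was 0.90 after quantile normalization and 0.89 after cyclic loess. Me1, the cytosolic NADP-dependent malic enzyme, stood at 4.65, 4.55 and 4.25 in wild type and 6.00, 5.63 and 5.59 in the knockout, a rise of 1.26 (SE 0.16, adjusted p = 0.00178), or 2.39-fold. Me3, the mitochondrial NADP-dependent malic enzyme, read 6.53, 6.83 and 6.08 in wild type and 7.90, 8.04 and 7.66 in the knockout and rose by 1.39 (SE 0.20, adjusted p = 0.00278), or 2.62-fold. Me3 minus Me1 changed by 0.13 (SE 0.20, exact permutation p = 0.5), which was within the spread of the arrays. Me2, the mitochondrial NAD-dependent form, read 3.93, 3.68 and 3.70 in wild type and 4.05, 4.15 and 4.26 in the knockout, and differed by 0.39 without overlap (adjusted p = 0.0748).

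Among the transaminases, the aspartate pair rose and the alanine pair did not pass. Got2, the mitochondrial aspartate aminotransferase of the malate-aspartate shuttle, stood at 10.55, 10.61 and 10.34 in wild type and 11.23, 11.54 and 11.43 in the knockout, a rise of 0.90 (SE 0.13, 95% interval 0.60 to 1.21, adjusted p = 0.00327). Got1, the cytosolic form, read 8.80, 9.02 and 8.94 in wild type and 9.56, 9.69 and 9.51 in the knockout and rose by 0.67 (SE 0.12, adjusted p = 0.00702). Both are bright genes, and after cyclic loess their differences were 0.40 and 0.26 (adjusted p = 0.0584 and 0.240). Glud1, glutamate dehydrogenase, which makes oxoglutarate from glutamate, read 7.16, 7.22 and 7.11 in wild type and 7.76, 7.87 and 7.83 in the knockout. It rose by 0.66 (SE 0.11, adjusted p = 0.00514), and by 0.35 after cyclic loess (adjusted p = 0.0600). Gpt2, the mitochondrial alanine aminotransferase, read 4.58, 4.53 and 3.51 in wild type and 4.71, 5.05 and 4.66 in the knockout, where wild type replicate 3 alone was far below. Its difference of 0.60 had a wide 95% interval of -0.03 to 1.23. Gpt, the cytosolic form best known from liver, overlapped at 3.67, 4.74 and 4.73 in wild type and 3.88, 4.12 and 4.49 in the knockout (difference -0.22, 95% interval -0.88 to 0.45). Got2 minus Got1 changed by 0.24 (exact permutation p = 0.2) and Gpt2 minus Gpt by 0.82 (exact permutation p = 0.3), both with overlapping groups.

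**Figure D5:**
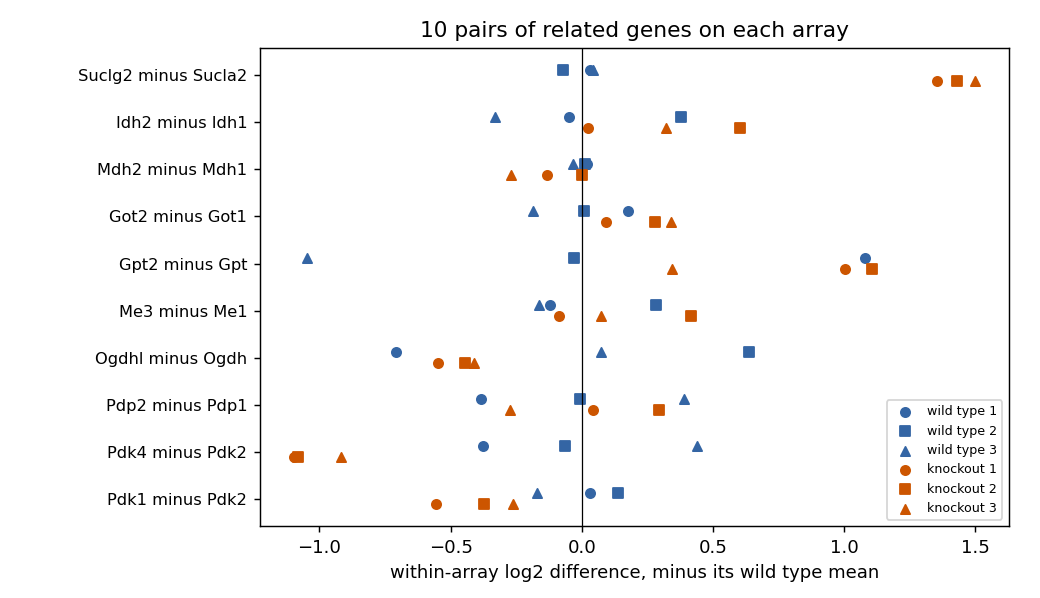
Each row is a pair of related genes and each point an array, at the log2 difference between the pair on that array minus its wild type mean. Suclg2 minus Sucla2 lies 1.43 higher in the knockout and Pdk4 minus Pdk2 lies 1.03 lower, both without overlap, and the other pairs differ less, most of them overlapping.

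By compartment, 19 of 30 mitochondrial members rose (median 0.70), and of 6 cytosolic ones Idh1, Me1 and Got1 rose (median 0.42). Fh1, which serves both compartments, was not counted in either. Of all genes 10.4% rose, and 34.5% in the brightest decile, where 24 of the 30 and 2 of the 6 lay. Within a group, the members tended to share a high or a low array. Wild type replicate 2 was the highest wild type array for 26 of the 37 genes and wild type replicate 3 the lowest for 23, and knockout replicate 2 was the highest knockout array for 27. The 3 knockout values were closer to each other than the wild type ones, by SD, for 29 of the 37 genes (78.4%), against 77.1% of genes in the brightest decile.

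Genes around the listed enzymes were looked at in the same way. Of 49 measured genes of a second list, covering the rest of the cycle, lipoylation, carriers and side reactions, 24 rose and Dhtkd1, an E1 of lysine breakdown, fell, with a median difference of 0.63. That is 49% higher and 2.04% lower, against 10.4% and 6.18% of all genes and 34.5% and 11.1% in the brightest decile. Among the succinate dehydrogenase subunits, which close the cycle between succinyl-CoA ligase and fumarase, Sdhc rose by 0.89 (adjusted p = 0.00515), while Sdha, Sdhb and Sdhd differed by 0.27, 0.14 and 0.33 and did not pass. The lowest p-values of that list belonged to Acss1, a mitochondrial acetyl-CoA synthetase, at 7.73, 7.73 and 7.23 in wild type and 10.16, 10.00 and 9.88 in the knockout (5.47-fold, adjusted p = 0.000192). Next came Slc25a12, the aspartate-glutamate carrier of the malate-aspartate shuttle, at 7.64, 7.50 and 7.31 in wild type and 9.70, 9.62 and 9.34 in the knockout (4.21-fold, adjusted p = 0.000211). Slc25a11, the oxoglutarate-malate carrier of the same shuttle, rose by 1.17 (SE 0.13). Among the shuttle genes named here, Got1, Got2, Slc25a11 and Slc25a12 rose, while Mdh1 and Mdh2 did not pass. Clybl, which breaks down citramalyl-CoA, rose by 1.29, Nnt, the proton-driven transhydrogenase that makes NADPH, by 1.28, and Adhfe1, which turns hydroxybutyrate into its aldehyde while forming hydroxyglutarate, by 1.38. Crat, which buffers acetyl-CoA as acetylcarnitine, rose by 1.06 and Mmut, the mutase that supplies succinyl-CoA from propionate, by 1.14. For these 8 genes the adjusted p was at most 0.00305, and Dhtkd1 (-0.57, adjusted p = 0.0376) lost its call after quantile normalization, median centring and cyclic loess, and without any of 5 single arrays.

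Of 17 measured genes listed as regulators of the pathway, 7 rose (41.2%, against 10.4% of all genes), and after cyclic loess 4 rose (7.93% of all genes). Nrf1 alone fell, which is 5.88% of the list against 6.18% of all genes, and 9 did not pass. Esrrg, an oestrogen-related receptor that drives oxidative genes in heart, stood at 5.26, 5.59 and 5.15 in wild type and 6.64, 6.24 and 6.47 in the knockout (difference 1.12, SE 0.16, adjusted p = 0.00274). Mcu, the pore of the mitochondrial calcium uniporter, rose by 1.09 (adjusted p = 0.00217), and the others that rose were Esrrb, Rxra, Rxrg, Ppard and Gabpa, by 0.50 to 0.90. Ppargc1a, the coactivator of this programme, read 8.61, 8.81 and 8.68 in wild type and 8.38, 8.15 and 8.38 in the knockout, where every array was below every wild type array, but its difference of -0.40 did not pass (adjusted p = 0.0657). Nrf1 differed by -0.40 (adjusted p = 0.0487) and lost its call after median centring and without any of 5 single arrays, and Ppara by 0.34 (adjusted p = 0.469).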

How the data were processed

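Total RNA was extracted with TRIzol and labelled with biotin, per the labels' protocols. The deposited log2 values, 1 per probe set and array, are RMA summaries, per the submitters' processing notes, which name affy 1.61.0 and R 3.6.0. The probe set definition was not given in the sources used here, nor was the genome build, and the log2 scale was inferred from the range of the values. Array medians ran from 2.13 to 2.28. No detection calls were used, so weak signals cannot be separated from background, and the number of arrays limits the precision. Of 25206 rows, 23185 carried 1 gene symbol in the platform annotation and were tested.

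Groups came from the sample titles. Each gene was tested with limma 3.58.1 (lmFit and eBayes, two-sided, genotype as sole factor) in R 4.3.3, and p-values were adjusted by Benjamini-Hochberg over all 23185 genes. Pairs of genes were compared by the exact permutation test over arrays of their within-array difference. The code was tested on simulated data. Members, lists and alternatives were chosen with earlier results of these data known. All members are named, with values on every array; of the second list, the Sdh subunits and the 8 other genes with the lowest p among those past the threshold. Dhtkd1 and the regulators were named after their values were seen. AGGTCA was added to the motifs at that stage too. Promoters came from a RefSeq table of GRCm38.p6. Alternatives were quantile normalization, centring, cyclic loess, filters, all rows, other variance models, array weights, a replicate block, arrays left out and other thresholds. Plots used matplotlib 3.10.9 in Python 3.11.15.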

Additional observations from a re-analysis of the deposited data

How the results depend on the processing

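Of 37 members, the number that rose stayed between 16 and 27 in all refits but cyclic loess, where 10 rose and 1 was lower. Their median difference was 0.42 after quantile normalization and 0.34 after cyclic loess. Asking also for at least 1 log2 unit left 5 members, 15 genes of the second list and 2 regulators higher (3.42% of all genes). A threshold of 0.01 left 16 members and 4 regulators (5.42%). Leaving out 1 array gave 16 to 23 members higher and 0 to 1 lower. Of all genes, 6.05% to 11.1% were then higher and 3.02% to 6.87% lower. Regulators that rose numbered 4 after quantile normalization, after cyclic loess and without both arrays numbered 1, and 4 to 7 without 1 array, while those that fell numbered 2 under both scalings, 0 after median centring, with an eBayes trend, with a filter of 30%, with either stricter threshold and without both arrays numbered 1, and 0 to 2 without 1 array (0 in 5 of the 6). The second list's single lower gene was lost, leaving 0, under all scalings, the 50% filter, the stricter thresholds and without both arrays numbered 1, and the count was 0 to 1 without 1 array. Differences that turned sign were those of genes that did not pass. After quantile normalization these were Aco1 (-0.11) and Mdh2 (-0.011). After cyclic loess they were Pdk4 (-0.076), Aco1 (-0.13), Ogdhl (-0.008), Sucla2 (-0.12), Fh1 (-0.041), Mdh1 (-0.16), Mdh2 (-0.25) and Me3 minus Me1 (-0.019). Without 1 array, Ogdhl ranged from -0.17 (wild type replicate 1 left out) to 0.61, Aco1 from -0.03 (knockout replicate 2) to 0.15, Me3 minus Me1 from -0.005 (knockout replicate 2) to 0.28, and Pdp2 minus Pdp1 from -0.17 (wild type replicate 1) to 0.22. Without both arrays numbered 1, Ogdhl was -0.10 and Pdp2 minus Pdp1 -0.18. The causes were not tested.

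With the replicate number as a block, 22 members rose, the same count, against 9.69% of all genes. In that refit 0 genes of the second list and 0 regulators fell, against 5.74% of all genes. The labels do not say whether equal numbers mark pairs. Deviations of same-numbered arrays correlated at 0.09, 0.05 and 0.07, and those of wild type replicate 2 and knockout replicate 3 at 0.06. With 3 arrays in each group, these values cannot show whether arrays were paired.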
